A study of Drosophila melanogaster with 96 samples.

Results

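The cytosolic ribosomal protein genes of Drosophila melanogaster were described in RNA sequencing of adult heads. Members were taken by symbol: every gene whose symbol starts with RpL or RpS and a digit or with RpLP, and sta, which encodes a protein of the small subunit. The rule took 93 of the 17698 genes in the table, 38 of the 40S subunit, 47 of the 60S subunit, 3 of the 60S stalk and 5 with a symbol that ends in -like. A filter on low values, at least 1 TPM (a transcript's length-scaled share of its library) in at least 24 libraries, kept 86 members among 10568 genes tested in all, and the other 7 are given by their values only. The rule used no measured difference between groups.

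The 4 groups were female flies with RNAi against Achl, female controls, male flies with RNAi against Achl and male controls, with 24 libraries each and 96 in all. All flies were 3 to 5 days old, were kept at 25 °C on a cycle of 12 h light and 12 h dark, and were in constant darkness for the 24 h before sampling and throughout it. Each library was a pool of 7 to 8 hand-dissected heads, and heads were collected at 2 h steps of circadian time (CT), CT24 through CT70, with a single library for each group and step and so no replicate of a time point. The sources used here do not give the control construct, the driver of the RNAi or the cells in which it acts. CT24 to CT46 are called day 1 and CT48 to CT70 day 2.

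A cytosolic ribosome is built from ribosomal RNA and one copy of most ribosomal proteins, divided between a small subunit (40S), which decodes the mRNA, and a large subunit (60S), which forms the peptide bond. Cells make these proteins in matched amounts, and growth signalling through Tor and Myc is known in flies to adjust the supply of ribosomes. In heads the ribosomes of neurons, glia, photoreceptors, fat body and muscle all draw on the same genes, so each value below is a sum over cell types. In such bulk samples, fewer cells of a type and less RNA per cell cannot be told apart.

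Values are TPM, which sum to the same total in each library, so a gene can shift because others do. The sequencing depth is unknown, and precision was read only from the spread between libraries. Achl, the RNAi target, had 15.6 ± 2.95 TPM in female RNAi heads and 68.3 ± 21.8 TPM in female control heads, and 22.5 ± 7.64 TPM in male RNAi heads and 77.7 ± 39.1 TPM in male control heads (SD, n = 24 each). The head markers ninaE (photoreceptors), nSyb (neurons) and repo (glia) were present in all 4 groups, with lowest values of 7831, 444.3 and 11.1 TPM. The mitochondrial ribosomal RNA mt:lrRNA split the female libraries: 9 female RNAi and 10 female control libraries, all of day 1, had at least 50000 TPM, and 15 female RNAi and 14 female control libraries had less. All male libraries were above that level. Over all tested genes the fitted median log2 difference between RNAi and control was -0.18 in females and -0.16 in males, and the changes below should be read against those shifts.

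The ribosomal protein genes together took a larger share of the TPM in female heads than in male heads, and at the median a smaller share under RNAi in both sexes. Their summed TPM was 8.54% of the library at the lowest, 12.9% at the median and 20.3% at the highest in female RNAi heads, and 11.3%, 16.7% and 20.2% in female control heads. It was 3.82%, 5.57% and 6.79% in male RNAi heads, and 5.11%, 6.99% and 8.72% in male control heads. Of nuclear TPM alone, which leaves out the mitochondrial RNAs, the median share was 14.1% in female RNAi heads and 7% in male RNAi heads, and 17.8% in female control heads and 8.65% in male control heads. The female and male ranges of either share did not overlap in either genotype, while, for the share of all TPM, the RNAi and control ranges overlapped within each sex. At the same CT the share was lower in RNAi than in control in 18 of 24 pairs in females and in 23 of 24 pairs in males, with median ratios of 0.866 and 0.769. It was higher in females than in males in 24 of 24 pairs in both genotypes, with a median ratio of 2.56 under RNAi and 2.41 in controls.

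**Figure D1:**
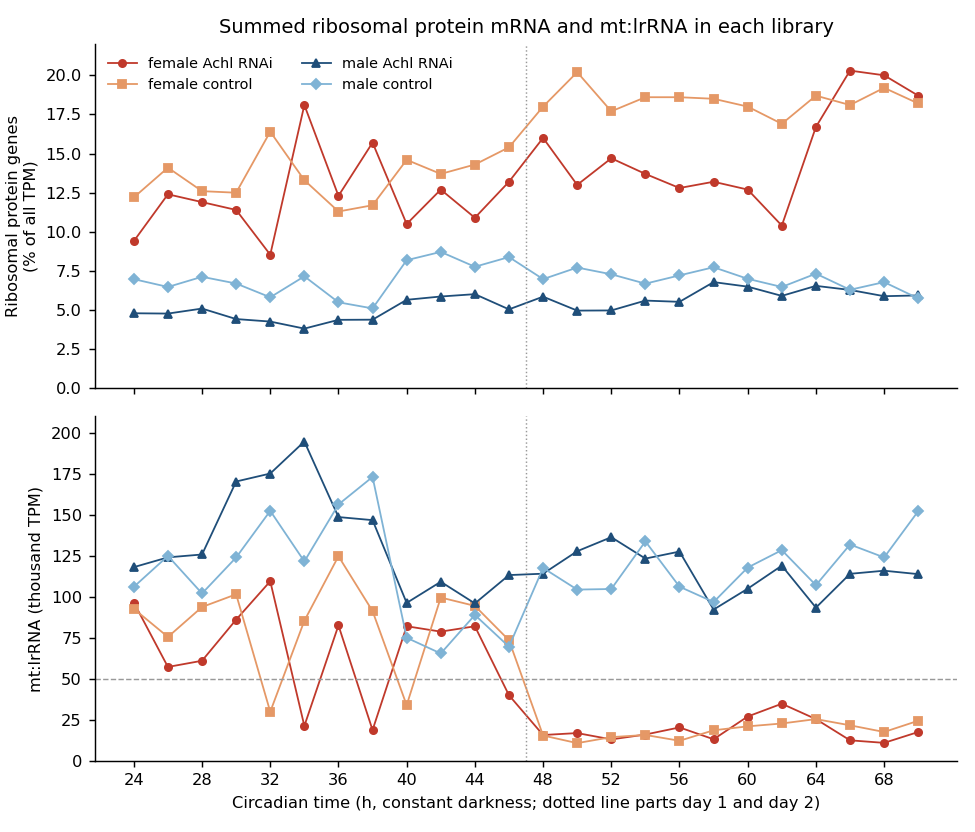
Share of all TPM taken by the 93 ribosomal protein genes (upper panel, percent) and level of mt:lrRNA (lower panel, TPM in units of 1000) in each library against circadian time in hours, with 1 point per library and 1 line per group. All female shares lie above all male shares of the same genotype, and the female libraries below the dashed line at 50000 TPM of mt:lrRNA hold the highest shares.

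The female shares moved with mt:lrRNA and with the day. Female RNAi libraries below 50000 TPM of mt:lrRNA had shares of 10.4% to 20.3%, and those above it 8.54% to 12.7%. Female control libraries below that level had shares of 14.6% to 20.2%, and those above it 11.3% to 15.4%. The part of mt:lrRNA in the share was not tested, and most of the low libraries were from day 2. Within the high libraries alone, all of day 1, the lowest female share lay above the highest male share of both days in each genotype. Median mt:lrRNA in these female libraries was 82038 TPM under RNAi and 93213 TPM in controls. In all male libraries it was 118520 TPM under RNAi and 117697 TPM in controls. Male shares also went with mt:lrRNA. In male controls the lowest share, 5.11% at CT38, came with the most mt:lrRNA, 173072 TPM. The highest, 8.72% at CT42, came with the least, 65432 TPM. In male RNAi heads the lowest share, 3.82% at CT34, came with the most, 194668 TPM. The highest, 6.79% at CT58, came with the least, 92193 TPM.

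Mean levels of the tested members ran from 1.13 to 7447 TPM. The 5 highest means over the 96 libraries were 7447 TPM for RpL41, which encodes the smallest ribosomal protein, 5372 TPM for RpL5, which binds 5S ribosomal RNA, 5224 TPM for RpL39, a protein of the exit tunnel, 4944 TPM for RpS3A and 4501 TPM for RpS29. The 20 most abundant members held 60.7% of the TPM of all members. At the low end were RpS28-like with a mean of 1.13 TPM, RpLP0-like with 35.1 TPM, RpS15Ab with 56.5 TPM, RpL34a with 71.5 TPM and RpL7-like with 72.6 TPM. TPM are scaled by transcript length, and the members' lengths in the table ran from 288 to 1453.6 bases.

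The 7 members below the filter were RpS10a, RpS5b, RpS19b, RpS28a, RpL10Aa, RpL37b and RpL22-like, each the second copy of a gene that was abundant in heads. Several of these copies are known from the germline. RpS28a was listed at 0 in all 96 libraries, and the highest value of RpL37b was 0.61 TPM. RpS19b reached 4.26 TPM, RpL22-like 1.81 TPM and RpS5b 1.55 TPM in the same library, male RNAi at CT28. RpS10a reached 1.84 TPM in a female control library and RpL10Aa 1.86 TPM in a male control library.

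In the comparison of female with male heads, the question was whether the supply of ribosomal protein mRNA differs by sex. Nearly every member was higher in females, in both genotypes and in both subunits. Under RNAi 85 of 86 members were called higher in females (limma, Benjamini-Hochberg adjusted p under 0.05 over all tested genes), with a median log2 difference of 1.53, against 32.7% of all tested genes called higher and a median of -0.04 over them. In controls 84 of 86 were called higher, with a median of 1.31, which is a 2.5-fold difference, against 27.7% of all tested genes and a median of -0.05. None was called lower, where 41.3% of all tested genes were lower in females under RNAi and 40.5% in controls. In controls the median was 1.32 for the 34 members of the 40S subunit, 1.31 for the 45 of the 60S subunit, 1.41 for the 3 stalk genes and 0.85 for the 4 -like genes.

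The groups themselves separated for many members. The lowest female library lay above the highest male library for 34 of 86 members under RNAi and for 36 of 86 in controls, against 1.70% and 2.18% of all tested genes. In same-CT pairs 54 members were higher in the female library in all 24 pairs under RNAi, and 78 were in controls. The pairs were not counted over all tested genes, so no background share stands beside these counts. The 73 tested genes of the mitochondrial ribosome, a separate set of proteins, differed less: 59 were called higher in females under RNAi with a median of 0.42, and 41 in controls with a median of 0.27. The 15 members on chromosome X had a median of 1.25 in controls and the 70 on autosomes with a known position 1.32.

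The largest differences in controls were in sta, RpL37a, RpS12, RpS20 and RpLP1. The gene sta (stubarista, chromosome X, 1481797 to 1483413, build dm6) had 369.9, 766.5 and 1710 TPM in female RNAi heads and 105.1, 201.2 and 276.6 TPM in male RNAi heads (lowest, median and highest). It had 579.9, 1064 and 1617 TPM in female control heads and 193.3, 292.8 and 407.9 TPM in male control heads. Female and male libraries did not overlap in either genotype, and the log2 difference was 2.12 ± 0.12 under RNAi (SE, adjusted p = 2.96e-28) and 1.78 ± 0.12 in controls (adjusted p = 2.41e-23). RpL37a, a gene apart from RpL37A, differed by 1.64 ± 0.09 in controls, RpS12 by 1.57 ± 0.14, RpS20 by 1.57 ± 0.1 and RpLP1 by 1.56 ± 0.06.

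A few members stood outside this pattern. RpS15Ab had 49.3, 57.2 and 66.1 TPM in female control heads and 46.6, 56.8 and 67.1 TPM in male control heads, ranges that coincide, with a log2 difference of 0.03 ± 0.04 (adjusted p = 0.589). Its paralog RpS15Aa is one of the abundant members, and RpS15Ab made up a median of 1.98% of the TPM of the pair in female controls and 4.01% in male controls. The 2 genes encode near-identical proteins, so how reads were divided between them is uncertain. RpS28-like, at about 1 TPM, differed by -0.16 ± 0.16 in controls (adjusted p = 0.358). RpL38, with 1793, 3838 and 6477 TPM in female control heads and 2224, 2879 and 3387 TPM in male control heads, differed by only 0.39 ± 0.12 (adjusted p = 0.00366). RpS3A differed by 0.69 ± 0.05 and RpS27 by 0.71 ± 0.04.

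A further fit, chosen after seeing the data, set only the female libraries of at least 50000 TPM of mt:lrRNA against all males. There 77 members were called higher in females under RNAi with a median of 1.01, and 81 in controls with a median of 0.86. Of the 10568 tested genes 1797 and 1495 were called higher. Neuron and glia markers moved with sex too: 8 of 8 neuron markers and 8 of 8 glia markers were called lower in females in controls, against 40.5% of all tested genes called lower and 27.7% higher, with summed levels of 1378 to 2232 TPM in female control heads and 2309 to 3121 TPM in male control heads for neurons. The summed glia markers had 1717 to 2048 TPM in female control heads and 2671 to 3246 TPM in male control heads. Of the 6 tested fat body markers 2 were called higher and 1 lower, with sums of 3154 to 6556 TPM in female control heads and 3190 to 4164 TPM in male control heads. Of 10 photoreceptor markers 2 were higher and 5 lower, of 8 muscle markers 2 were higher and 1 lower, and of 8 hemocyte markers 3 were higher and 2 lower, counts not far from those shares for photoreceptors and hemocytes. The part of cell composition in the sex difference was not tested. Members of 500 to 1000 bases had a median difference of 1.31 in controls, where other genes of that length had 0.08.

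**Figure D2:**
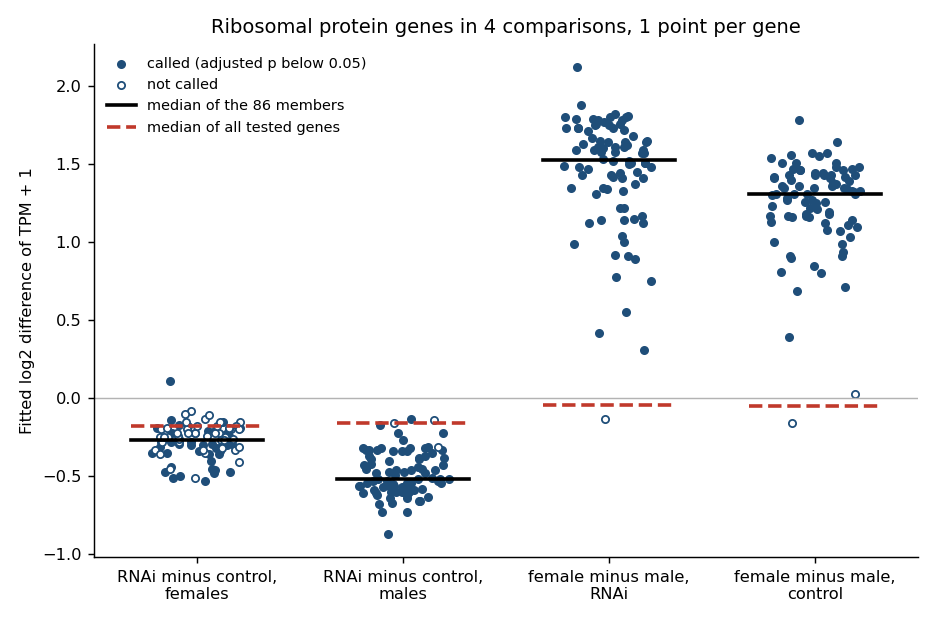
Fitted log2 difference of TPM + 1 for each of the 86 tested ribosomal protein genes (1 point per gene) in 4 comparisons; filled points are called at an adjusted p below 0.05, black bars are the members' medians and red dashed bars the medians of all tested genes. The members' medians are 1.53 and 1.31 for females against males, -0.51 for RNAi in males and -0.27 for RNAi in females, where the median of all genes is -0.18.

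The next question was what RNAi against Achl changed in male heads. The members fell almost without exception: 83 of 86 were called lower and 0 higher by limma, with a median log2 change of -0.51. Of all tested genes 53.5% were called lower and 4.61% higher, with a median of -0.16. At an unadjusted p under 0.05 there were also 83 members. All 34 members of the 40S subunit were called lower, 44 of 45 of the 60S subunit, 3 of 3 stalk genes and 2 of 4 -like genes. No member had groups that did not overlap, against 0.577% of all tested genes. In same-CT pairs 12 members were lower in the RNAi library in all 24 pairs and 82 in at least 18. Such pairs were not counted over all tested genes, so these counts cannot be read as particular to the members.

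The 5 largest falls were in RpS14b, RpL23A, RpL7, RpS9 and RpL3. RpS14b (chromosome X, 7934898 to 7935792) had 11, 59.4 and 129.4 TPM in male RNAi heads and 38.8, 93 and 228.1 TPM in male control heads. The groups overlapped broadly, with the lowest RNAi libraries below all controls, and the log2 change was -0.87 ± 0.29 (adjusted p = 0.00851). Its medians were 27.9 TPM under RNAi and 110.9 TPM in controls on day 1, and 77.2 and 79.6 TPM on day 2. That difference between the days was not called, as given further below. RpL23A, a protein near the exit of the peptide tunnel, had 38.3, 117 and 181.8 TPM in male RNAi heads and 88.2, 169 and 296.4 TPM in male control heads. It was lower in 22 of 24 pairs, and it fell by 0.73 ± 0.19 on the log2 scale (adjusted p = 0.00118). RpL7 fell by 0.73 ± 0.22, RpS9 by 0.68 ± 0.22 and RpL3, which reaches to the peptidyl transferase centre, by 0.67 ± 0.22 (adjusted p = 0.00371, 0.00598 and 0.00755).

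Other members fell less and with a smaller error. RpL41 had 3206, 4213 and 4606 TPM in male RNAi heads and 3926, 5262 and 6012 TPM in male control heads, was lower in 24 of 24 pairs and changed by -0.32 ± 0.05 (adjusted p = 3.65e-07). RpS27 had 292, 372 and 447 TPM in male RNAi heads and 419, 489 and 541 TPM in male control heads, with a change of -0.39 ± 0.04 (adjusted p = 2.04e-13). The ubiquitin fusion genes, whose products are split into ubiquitin and a ribosomal protein, fell too: RpS27A by 0.34 ± 0.05 (adjusted p = 7.77e-08) and RpL40 by 0.35 ± 0.12 (adjusted p = 0.0105). RpLP0, the base of the stalk that recruits elongation factors, had 204.9, 322 and 426.7 TPM in male RNAi heads and 336.6, 438.4 and 578.8 TPM in male control heads. Its upper RNAi libraries overlapped the lower controls. The stalk genes fell by 0.54 ± 0.09 for RpLP0, 0.34 ± 0.06 for RpLP1 and 0.45 ± 0.07 for RpLP2. RpS6, the target of the S6 kinase, fell by 0.43 ± 0.11 (adjusted p = 0.000698).

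The smallest changes in males were in RpS29 (-0.13 ± 0.05, adjusted p = 0.0211), RpL38 (-0.14 ± 0.12, adjusted p = 0.317), RpL24-like (-0.16 ± 0.09, adjusted p = 0.123), RpS15Ab (-0.17 ± 0.04, adjusted p = 0.000861) and RpLP0-like (-0.22 ± 0.09, adjusted p = 0.0255). RpL24-like and RpLP0-like are similar to yeast proteins that act in building the 60S subunit. RpS28-like was the third member not called, at -0.31 ± 0.16 (adjusted p = 0.0808). With each library centred on its median, 71 members were still called lower, against 17.7% of all tested genes, and RpL38 and RpS29 then changed by 0.02 and 0.04. In day 1 libraries alone 82 were called lower with a median of -0.76, and in day 2 libraries alone 43 were, with a median of -0.23, against 53.6% and 25.8% of all tested genes.

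In female heads, over both days in the reported fit, the share of members called lower under RNAi was below that of all tested genes. Their median fall was nevertheless larger than that of all tested genes. Neither order held under every other setting. The counts further below show this for the shares, and on day 1 alone the medians were -0.19 for the members and -0.2 for all tested genes. Of the 86 members, 41 were called lower and 1 higher, with a median log2 change of -0.27, where 55.7% of all tested genes were called lower, 4.70% higher and the median was -0.18. The members called lower were 14 of 34 in the 40S subunit, 21 of 45 in the 60S subunit, 3 of 3 stalk genes and 3 of 4 -like genes. No member had groups that did not overlap, against 0.132% of all tested genes.

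RpL22, a 60S protein that in flies also binds histone H1, stood first. It had 347.7, 713.7 and 865.2 TPM in female RNAi heads and 701.9, 898.9 and 1094 TPM in female control heads. It was lower in the RNAi library in 24 of 24 pairs, and the change was -0.53 ± 0.08 (adjusted p = 7.06e-09). In males the same gene was also lower in 24 of 24 pairs, with 296.0, 352.7 and 460.1 TPM in RNAi heads and 375.3, 474.0 and 590.4 TPM in control heads, a change of -0.37 ± 0.08 (adjusted p = 2.76e-05).

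The stalk genes fell by 0.28 ± 0.09 for RpLP0, 0.18 ± 0.06 for RpLP1 and 0.22 ± 0.07 for RpLP2 in females (adjusted p = 0.00989, 0.0111 and 0.00405). The ubiquitin fusion gene RpS27A fell by 0.15 ± 0.05 (adjusted p = 0.0129), while RpL40 changed by -0.18 ± 0.12 (adjusted p = 0.183). RpS6 fell by 0.29 ± 0.11 (adjusted p = 0.0199).

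The next members in females by size were RpL10Ab (-0.51 ± 0.21, adjusted p = 0.0328), RpL32 (-0.51 ± 0.23), RpL3 (-0.5 ± 0.22, adjusted p = 0.042) and RpL7 (-0.48 ± 0.22, adjusted p = 0.0486). RpL32, long used as a reference gene for PCR in flies, had 233.4, 974.4 and 2311 TPM in female RNAi heads and 397.1, 1395 and 2523 TPM in female control heads, a spread of about an order of magnitude within a group, and its adjusted p of 0.05 lay at the threshold. The smallest falls were not called: RpL31 changed by -0.13 ± 0.13, RpL38 by -0.11 ± 0.12, RpS29 by -0.1 ± 0.05 and RpL13A by -0.08 ± 0.15. RpS15Ab was the 1 member called higher, with 40.4, 63.2 and 85.9 TPM in female RNAi heads and 49.3, 57.2 and 66.1 TPM in female control heads. The groups overlapped and the change was 0.11 ± 0.04 (adjusted p = 0.0261).

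The female count depended on the day and the scaling. In day 1 libraries 14 members were called lower with a median of -0.19, and in day 2 libraries 79 with a median of -0.36, against 42.9% and 51.0% of all tested genes. On day 2 the male median was -0.23. In females over both days, with each library centred on its median, 10 members were called lower, against 1163 of the 10568 tested genes. Across the day 2 libraries the female RNAi share of ribosomal protein mRNA lay between 10.4% and 16.7% up to CT64 and between 18.7% and 20.3% from CT66, as the plot of shares by circadian time shows.

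The difference between the sexes in the RNAi effect was tested directly. The RNAi change was higher (less negative) in females than in males for 3 of 86 members, with a median difference of 0.21, against 5.75% of all tested genes called higher, 8.37% called lower and a median of -0.01. None was called lower. In all 14 members had an unadjusted p under 0.05, where 25.0% of all tested genes did. The 3 were RpS15Ab (0.29 ± 0.06, adjusted p = 0.000569), RpS27 (0.2 ± 0.06, adjusted p = 0.00987) and RpL39 (0.2 ± 0.07, adjusted p = 0.0481). The 5 largest differences, RpS14b (0.54 ± 0.41), RpL13A (0.51 ± 0.21), RpL13 (0.47 ± 0.25), RpL35A (0.46 ± 0.22) and RpL31 (0.43 ± 0.18), were not called. At the other end were RpL24-like (-0.24 ± 0.13), RpL22 (-0.16 ± 0.11), RpLP0-like and RpS10b (-0.03 ± 0.12 and -0.03 ± 0.18) and RpL21 (-0.02 ± 0.09). A larger fall in males than in females is therefore not shown for single members other than those 3. The median difference turned sign between the days, with 0.52 and 32 members called higher in day 1 libraries and -0.12 and 1 member in day 2 libraries, against 8.61% and 1.80% of all tested genes. With the length trend of each library removed 0 were called higher and 2 lower by limma, against 7.00% and 6.56% of all tested genes.

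The members were compared between the 2 days of darkness. In both female groups and in male RNAi heads most were higher on day 2, and in male controls none was. In female RNAi heads, of 86 members, 64 passed as higher and 1 as lower, and the median log2 difference was 0.50. The shares over the whole table were 50.1% higher and 8.41% lower. In female controls 81 were higher and 1 lower, at a median of 0.67, against 47.3% and 12.4%. In male RNAi heads 61 were higher and 0 lower, at a median of 0.44, against 12.9% and 0.530%. In male controls limma called 0, at a median of -0.05, against 0.00946% called higher and 0.0946% lower. There 0 members had an unadjusted p under 0.05, against 6.39% of all tested genes. The mitochondrial ribosomal protein genes gave 59, 65, 17 and 0 called higher of 73 in the same order of groups.

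**Figure D3:**
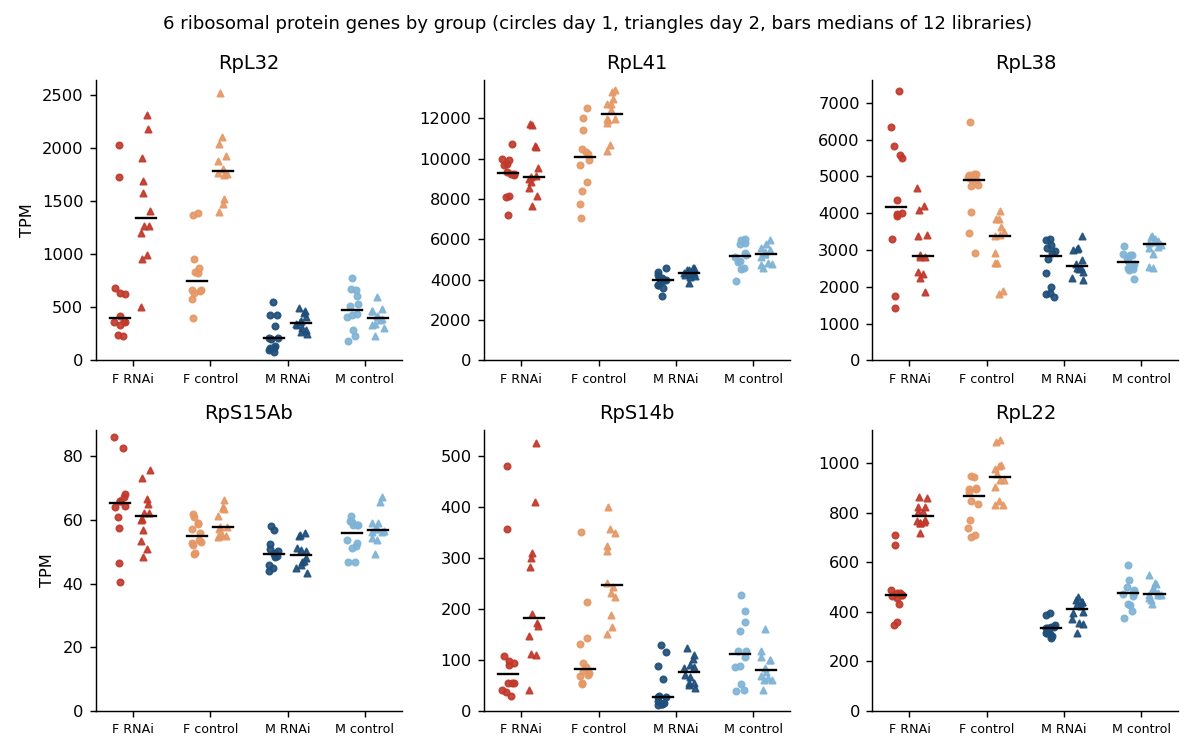
TPM of 6 ribosomal protein genes in each library by group, with circles for day 1, triangles for day 2 and bars at the medians of 12 libraries; F stands for female and M for male. RpL32, RpS14b and RpL22 lie higher on day 2 in female RNAi heads, RpL38 lies lower on day 2 in both female groups, and RpS15Ab is at similar levels throughout.

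RpL32 had the largest day difference of all tested members in female RNAi heads. In female RNAi heads it had 506.4, 1341 and 2311 TPM on day 2 and 233.4, 397.8 and 2028 TPM on day 1, and in female control heads 1397, 1783 and 2523 TPM on day 2 and 397.1, 745.9 and 1392 TPM on day 1. The female control days did not overlap, and the female RNAi days did. The log2 differences were 1.37 ± 0.25 in female RNAi heads (adjusted p = 5.2e-06), 1.22 ± 0.25 in female controls (adjusted p = 6.37e-05), 0.82 ± 0.25 in male RNAi heads (adjusted p = 0.0237) and -0.17 ± 0.25 in male controls (adjusted p = 0.937). RpS14b moved by 1.18 ± 0.35, 1.35 ± 0.35, 1.19 ± 0.35 and -0.31 ± 0.35 in those groups.

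RpL38 went the other way in females. It had 1868, 2838 and 4693 TPM on day 2 and 1431, 4174 and 7332 TPM on day 1 in female RNAi heads, and 1793, 3387 and 4051 TPM on day 2 and 2916, 4913 and 6477 TPM on day 1 in female control heads. It was the 1 member called lower in each, by -0.44 ± 0.15 (adjusted p = 0.0118) and -0.61 ± 0.15 (adjusted p = 0.000694). In males it was not called, with differences of 0.07 ± 0.15 under RNAi and 0.2 ± 0.15 in controls. RpS3A, RpS27 and RpS15Ab were not called in either female group, with differences from -0.11 to 0.1.

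In the direct test of whether the RNAi effect differed between days, RpL22 in females was the 1 member called. It had 718.0, 785.6 and 865.2 TPM on day 2 and 347.7, 468.0 and 709.3 TPM on day 1 in female RNAi heads, against 830.8, 944.2 and 1094 TPM on day 2 and 701.9, 866.6 and 947.2 TPM on day 1 in female control heads. The RNAi libraries of the 2 days did not overlap, and the RNAi effect was less negative on day 2 by 0.56 ± 0.09 (adjusted p = 2.62e-05). The shares over the whole table were 2.55% higher and 0.643% lower, and 11 members had an unadjusted p under 0.05, against 13.7%. In males limma called 0 members, against 0.615% of all tested genes higher and 0% lower, although 69 of 86 had an unadjusted p under 0.05, against 25.7% of all tested genes, with a median of 0.51. The largest was RpS14b at 1.5 ± 0.49 (adjusted p = 0.0961).

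The day comparisons carry known differences between libraries. Median mt:lrRNA was 16454 TPM on day 2 and 80384 TPM on day 1 in female RNAi heads, and 18081 TPM on day 2 and 91961 TPM on day 1 in female control heads. In male RNAi heads it was 114983 TPM on day 2 and 124909 TPM on day 1. On day 1 only 3 female RNAi and 2 female control libraries were below 50000 TPM, and the part of mt:lrRNA in the day difference was not tested. The male RNAi count was 18 without the library of CT58 and 74 without that of CT44, with no background share beside them. With each library centred on its median it was 22, against 3.39% of all tested genes. With that centring 40 members were higher and 9 lower in female RNAi heads at a median of 0.28, against 22.1% and 29.2% of all tested genes.

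Whether the members cycled over 24 h was tested in each group, and no member was called rhythmic in any. Called members numbered 0 of 86 in each group by limma, where 1.40% of all tested genes were called in female RNAi heads, 1.60% in female controls, 1.02% in male RNAi heads and 1.26% in male controls. At an unadjusted p under 0.05 there were 9 members in female RNAi heads, 0 in female controls, 26 in male RNAi heads and 0 in male controls, against 10.8%, 9.22%, 15.1% and 5.64% of all tested genes. A change of rhythm by RNAi was called for 0 members in either sex (0.0189% of all tested genes in females and 0% in males), with 4 members in females and 0 in males at an unadjusted p under 0.05, against 7.44% and 1.89%. The lowest p in females were those of RpL37A, RpL35, RpS15Ab and RpL41 (adjusted p = 0.416, 0.565, 0.565 and 0.599), and in males those of RpS27, RpL35A, RpS19a and RpL26 (adjusted p = 0.968 each).

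Fitted peaks were counted in 1 stretch of the cycle, CT16 to CT22, a window that was not part of the plan. It held the peaks of most members in both RNAi groups but not in the control groups. In every group the share of members in it was above that of all tested genes. No other window was counted, so whether the control peaks gathered elsewhere is not known. Peaks between CT16 and CT22 (taken modulo 24 h) were fitted for 80 of 86 members in female RNAi heads, 37 in female controls, 77 in male RNAi heads and 39 in male controls, against 50.5%, 15.9%, 55.3% and 27.6% of all tested genes. The median ratio of fitted peak to trough was 1.25, 1.18, 1.51 and 1.14 in those groups, against 1.13, 1.13, 1.17 and 1.10 for all tested genes. The lowest p in female RNAi heads were those of RpL35 (ratio 1.25, peak 19.2 h, adjusted p = 0.147), RpS15Ab (1.23, 23 h, 0.16), RpL37A (1.26, 20.3 h, 0.195) and RpLP2 (1.35, 19 h, 0.204). In male RNAi heads they were those of RpL35A (2.04, 18 h, 0.209), RpLP0 (1.46, 17.5 h, 0.289), RpS19a (1.67, 19 h, 0.294) and RpL13A (1.82, 17.8 h, 0.3). In female controls RpL41, RpL10, RpS27 and RpL7-like came first, with RpL41 at an adjusted p of 0.728, and in male controls RpLP0-like, RpL41, RpL35 and RpS15Ab, with RpLP0-like at an adjusted p of 1.

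**Figure D4:**
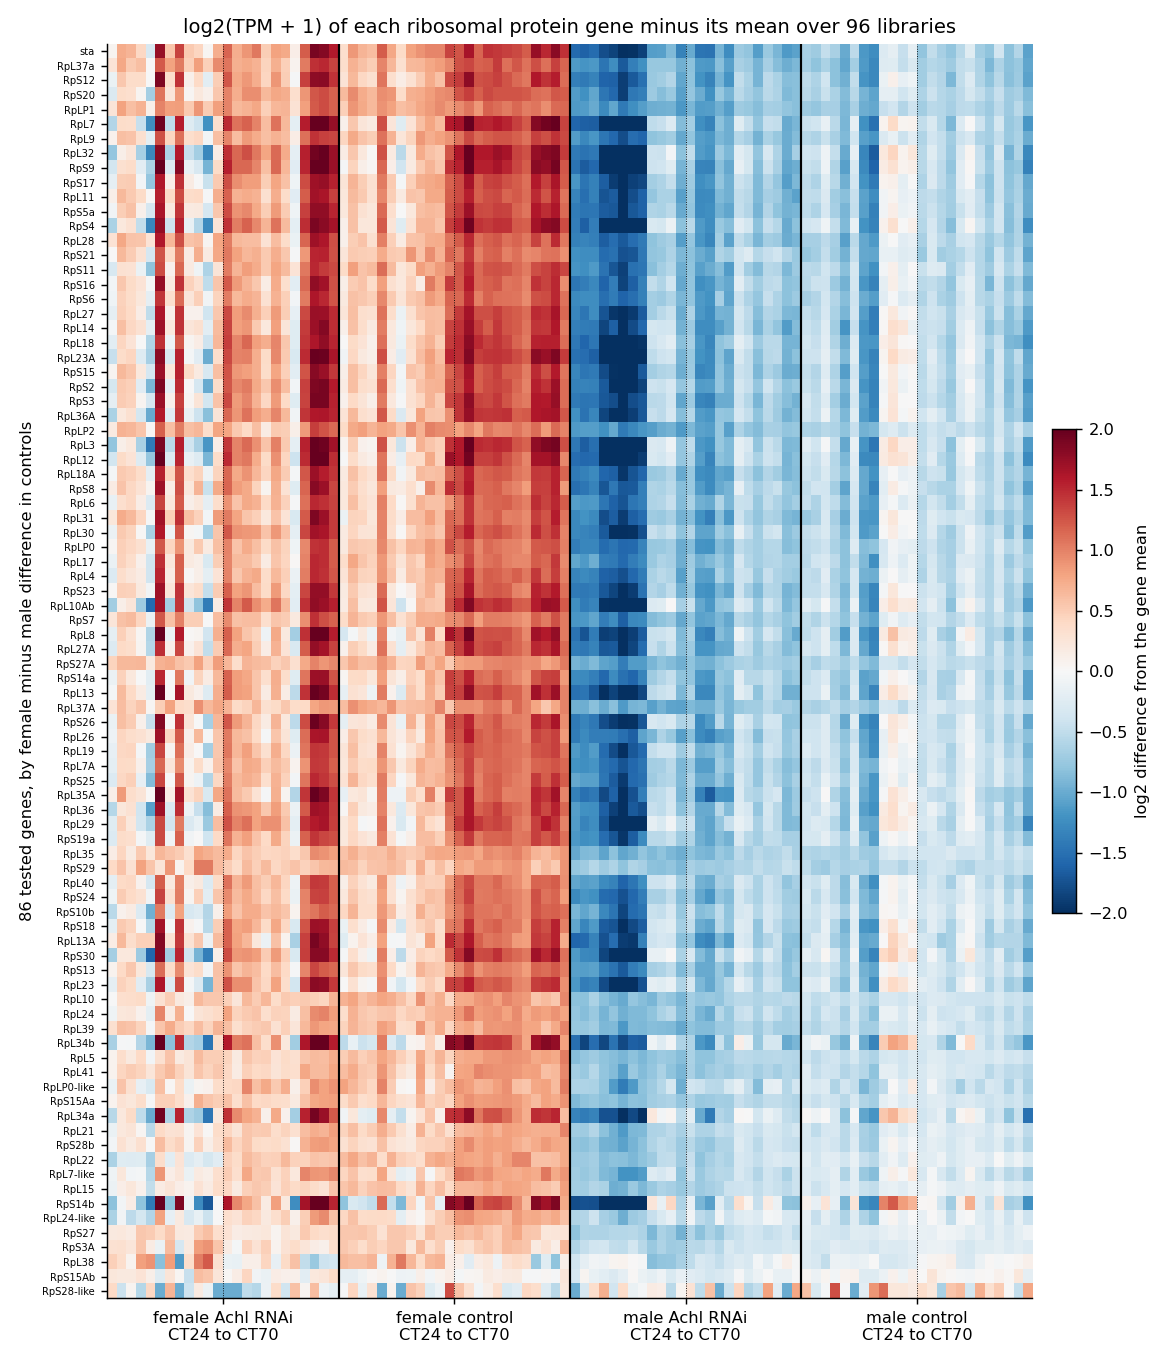
log2(TPM + 1) of the 86 tested ribosomal protein genes (rows, ordered by the female minus male difference in controls) in the 96 libraries (columns, by group and from CT24 to CT70 within a group), each minus the gene's mean; colours end at 2 above and below the mean and dotted lines part the days. Most rows rise and fall together from library to library, and the rows at the foot, among them RpS3A, RpL38, RpS15Ab and RpS28-like, do not.

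Most members varied together from library to library. With group means removed, the log2 value of a member was compared with the median of the other members across 96 libraries, as a description: Pearson's r was over 0.9 for 63 of 86 members, between 0.5 and 0.9 for 15 and under 0.5 for 8, with a median of 0.96. These values share the library's composition and total. The 8 were RpL37A (0.46), RpL10 (0.39), RpS15Ab (0.07), RpS27 (0.04), RpS29 (-0.01), RpS28-like (-0.11), RpS3A (-0.35) and RpL38 (-0.78). Abundant members followed the rest less closely: r was under 0.9 for 13 of the 20 most abundant and for 10 of the other 66.

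**Figure D5:**
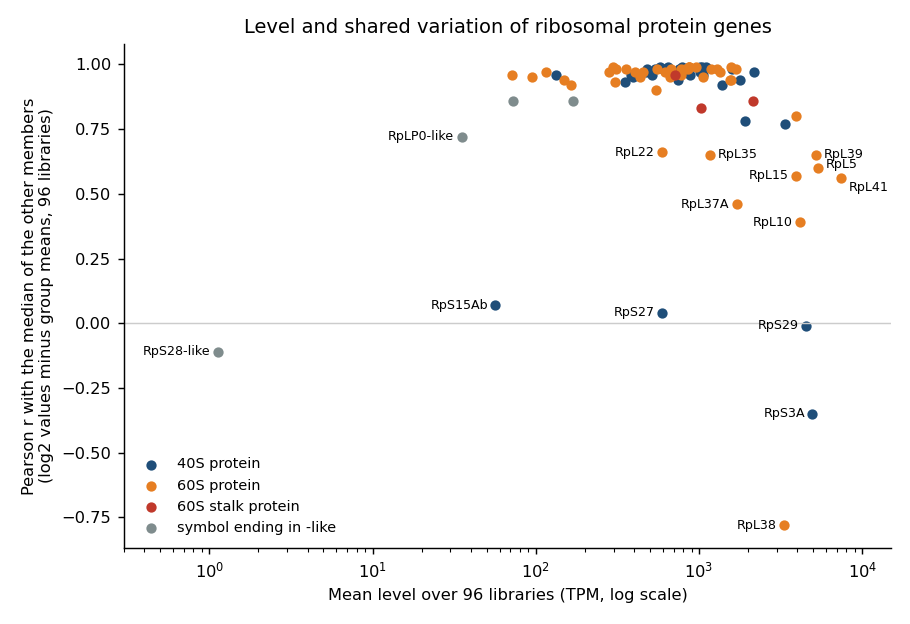
Mean TPM over 96 libraries (log scale) against Pearson's r of each tested member with the median of the other members. Only r was computed on log2 values with group means removed. Colours mark the subunit. Members with r under 0.75 are named, and RpL38, RpS3A, RpS28-like and RpS29 lie below 0.

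The scatter within groups was as uneven. The residual SD of log2 values was 0.14 for RpS27, 0.15 for RpL10 and RpL5, and 0.16 for RpS15Ab and RpS29. It was 1 for RpS14b, 0.82 for RpL34b, 0.79 for RpL32 and 0.76 for RpL3, RpL7 and RpS30. This scatter sets how small a difference could be called: the SE of the RNAi effect in males was 0.04 for RpS27 and 0.29 for RpS14b.

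Paralogs with both copies tested were compared as pairs. RpS14a (chromosome X, 7933742 to 7934677) and RpS14b lie next to each other on the same strand and encode the same protein, so the division of reads between them is uncertain. RpS14b made up a median of 18% of their summed TPM in female RNAi heads, 18.2% in female controls, 20% in male RNAi heads and 23.1% in male controls. On day 2 the medians were 19.7%, 20.8%, 22.5% and 21.5% in those groups, and on day 1 they were 12.4%, 12.1%, 13.6% and 25.3%. RpS14a itself fell by 0.44 ± 0.13 in males under RNAi (adjusted p = 0.00278) and changed by -0.22 ± 0.13 in females (adjusted p = 0.121). RpL34b made up a median of 56.8%, 57.3%, 53.2% and 54.9% of the TPM of RpL34a and RpL34b in female RNAi, female control, male RNAi and male control heads. Both fell in males under RNAi, RpL34a by 0.56 ± 0.22 and RpL34b by 0.6 ± 0.24 (adjusted p = 0.0249 and 0.0282), and neither was called in females (-0.32 ± 0.22 and -0.33 ± 0.24).

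The abundant copy of each pair followed the other members. In males under RNAi RpS15Aa fell by 0.33 ± 0.05, RpS28b by 0.32 ± 0.06, RpS5a by 0.56 ± 0.14, RpS10b by 0.45 ± 0.13, RpS19a by 0.52 ± 0.13 and RpL10Ab by 0.64 ± 0.21. In females under RNAi RpS15Aa fell by 0.21 ± 0.05, RpS28b by 0.19 ± 0.06, RpS10b by 0.47 ± 0.13 and RpS19a by 0.3 ± 0.13, and RpS5a was not called (-0.25 ± 0.14, adjusted p = 0.13). In controls RpS15Aa was higher in females than in males by 1 ± 0.05, where RpS15Ab differed by 0.03 ± 0.04. RpS28-like made up at most 0.118% of the TPM of RpS28b and RpS28-like in female RNAi heads. RpL24-like fell by 0.4 ± 0.09 in females under RNAi (adjusted p = 0.000128), and RpL24 by 0.28 ± 0.07.

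Genes that work with the ribosome were read from lists of 37 elongation, initiation and termination factors, 22 ribosome biogenesis genes and 21 regulators of ribosome supply. Under RNAi these lists should be read against the 53.5% of all tested genes called lower in males and the 55.7% in females. Among the factors 25 of 37 were called lower and 3 higher under RNAi in males, and 23 lower and 1 higher in females. The elongation factor eEF1alpha1, which brings tRNAs to the ribosome, fell by 0.5 ± 0.05 in males (adjusted p = 6.3e-14) and by 0.3 ± 0.05 in females (adjusted p = 6.93e-07). The next in males was eEF5 (-0.37 ± 0.04, adjusted p = 8.23e-13), and eRF3 and eIF1 were higher by 0.17 ± 0.04 and 0.16 ± 0.04. In females Tctp (-0.36 ± 0.05, adjusted p = 4.25e-09) and eIF4E1, the cap-binding factor (-0.22 ± 0.03, adjusted p = 1.35e-07), came first among those lower, and eIF1 was higher by 0.14 ± 0.04 (adjusted p = 0.00357). In females against males, 29 of the 37 factors were called higher and 4 lower under RNAi, and 31 higher and 5 lower in controls, against 32.7% and 27.7% of all tested genes called higher. eEF1alpha1 was higher in females by 0.9 ± 0.05 in controls, while its paralog eEF1alpha2 was lower (log2 -0.39 ± 0.03, adjusted p = 3.91e-20).

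Of the 22 biogenesis genes 13 were called lower under RNAi in males, a share near the 53.5% of all tested genes, and 17 in females, against 55.7%, with 0 higher in both. In females against males 21 of 22 were called higher in each genotype, against 32.7% of all tested genes under RNAi and 27.7% in controls. The nucleolar gene nop5 differed most clearly, by 1.77 ± 0.08 in controls (adjusted p = 2.46e-34), and Non1 fell by 0.7 ± 0.13 under RNAi in males (adjusted p = 8.64e-06), followed by Ns2 (-0.24 ± 0.06, adjusted p = 0.000206). In females Nopp140 (-0.23 ± 0.04, adjusted p = 5.47e-06) and Nnp-1 (-0.24 ± 0.05, adjusted p = 0.000102) had the lowest p. Of the 21 regulators 11 were called lower and 0 higher under RNAi in each sex, shares near those of all tested genes. Tor, a kinase that promotes ribosome production, fell by 0.33 ± 0.07 in males (adjusted p = 2.1e-05) and by 0.3 ± 0.07 in females (adjusted p = 7.38e-05). Xrp1, a transcription factor known in flies from cells with a missing ribosomal protein gene copy, fell by 0.14 ± 0.03 in males (adjusted p = 0.00011) and changed by 0.05 ± 0.03 in females (adjusted p = 0.174). Mnt and larp fell by 0.2 ± 0.04 and 0.19 ± 0.04 in females. Myc, a transcription factor that raises ribosome biogenesis in flies, had 22.3, 35.4 and 55.4 TPM in female RNAi heads and 10.3, 13.5 and 19.8 TPM in male RNAi heads, and 23.5, 44 and 54.2 TPM in female control heads and 10.7, 12.8 and 18.2 TPM in male control heads. Female and male libraries did not overlap for Myc, and the difference was 1.67 ± 0.07 in controls (adjusted p = 1.39e-37). Under RNAi Myc fell by 0.31 ± 0.07 in females (adjusted p = 0.000166) and changed by 0.07 ± 0.07 in males (adjusted p = 0.386), and that difference between the sexes was itself called (-0.38 ± 0.1, adjusted p = 0.00427).

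Marker genes were counted for RNAi in the same way, against the 53.5% of all tested genes called lower in males and the 55.7% in females. In males 6 of 6 fat body markers, 8 of 8 glia markers, 7 of 10 photoreceptor markers, 3 of 8 muscle markers, 3 of 8 hemocyte markers and 1 of 8 neuron markers were called lower. In females 3 of 6, 8 of 8, 8 of 10, 6 of 8, 2 of 8 and 5 of 8 were, and 3 hemocyte markers were higher. The counts of muscle, hemocyte and neuron markers in males, and of fat body, hemocyte and neuron markers in females, were near or under those shares. The summed fat body markers had 1430 to 2744 TPM in male RNAi heads and 3190 to 4164 TPM in male control heads, ranges that did not overlap. The part of these shifts in the fall of the ribosomal protein genes was not tested.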

How the data were processed

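The submitters' processing notes name STAR, RSEM and dm6, and the labels name a stranded mRNA kit. The sources used here give neither versions nor the annotation. The table deposited by the authors holds TPM, a value for each gene and library, so the depth of a library is unknown. Positions come from Ensembl release 115. RpS12 has no position there.

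The test used log2(TPM + 1) of the genes that reached 1 TPM in 24 or more libraries, so folds of low genes are understated. A single limma 3.58.1 model (R 4.3.3, with its trend and robust settings) took all 96 libraries, and gave each group a mean and a 24 h wave. A second fit with a mean per group and day gave the day contrasts. P-values were two-sided and adjusted by Benjamini-Hochberg over all 10568 tested genes. With 1 library per group and CT they reflect nothing but how far libraries scatter about the fitted wave, which may be technical. A count test was planned for the case of counts and was not used, since the values are TPM. The fits were run on simulated data with known changes and independent noise for each gene and library. Such data lack the variation that genes share here, so they cannot show the error rates under it. Plots used matplotlib 3.10.9 under Python 3.11.15.

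The members, gene lists and alternatives were chosen with earlier results of these data known. Genes were named by a rule: the 5 largest changes each way per level comparison, the 4 lowest p per rhythm test, the 5 highest and lowest levels, members called against the majority, members below the filter, paralogs, stalk and ubiquitin fusion genes, RpS6, and per list the 2 genes of lowest p each way. RpS30, RpL24, eEF1alpha2, nop5 and Myc were named after their values were seen.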

Additional observations from a re-analysis of the deposited data

Results flagged for a closer look

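The sex difference of the RNAi effect was past the threshold for 3 ribosomal protein genes. RpS15Ab differed by 0.29 (log2, females minus males), with a change of 0.11 in females and -0.17 in males. RpS27 differed by 0.20, with -0.19 in females and -0.39 in males. RpL39 differed by 0.20, with -0.17 in females and -0.37 in males.

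The RNAi effect on RpL22 in females differed between the days by 0.56 (log2, day 2 minus day 1). RpL22 was the 1 member called of 86, against 2.55% of all tested genes called higher and 0.643% lower. Its female RNAi libraries of the 2 days did not overlap.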

How the results depend on the processing

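The counts of members called higher in females than in males stayed between 77 and 85 under every alternative tried, in both genotypes. Over those alternatives 12.8% to 42.2% of all tested genes were called higher. Members called lower under RNAi in males ranged from 71 to 83 with the other settings, against 17.7% to 55.9% of all tested genes. On day 2 alone there were 43, against 25.8%. Members called lower under RNAi in females numbered 10 with per-library median centring, 14 on day 1 alone and 79 on day 2 alone. Of the 10568 tested genes 1163, 4538 and 5392 were called lower in those fits. The sex difference of the RNAi effect was called higher for 13 members with centring and for 1 with TPM rescaled over nuclear genes. It was called higher for 32 on day 1 and for 1 on day 2. With the females of at least 50000 TPM mt:lrRNA against all males it was called higher for 10. The counts were 24 with those females on day 1 alone and 0 with the length trend removed. The last 3 of these settings and the leave-one-out series were chosen after seeing the data. Of the 10568 tested genes 855, 550, 910, 190, 821, 1111 and 740 were called higher, in the same order of settings. Members called lower numbered 1 with nuclear rescaling, 1 on day 1 and 2 in each of the last 3 settings. With centring and on day 2 there were 0. Rhythmic members numbered 2 in female RNAi heads with nuclear rescaling, and 1 in female RNAi and 1 in male RNAi heads with a term for the second day. All tested genes called in those fits numbered 230, 265 and 412 of 10568. Members higher on day 2 numbered 40 in female RNAi heads and 22 in male RNAi heads with centring, and 21 in male RNAi heads with the length trend removed. The shares of all tested genes were 22.1%, 3.39% and 3.34%. With centring 40 rose and 9 fell in female RNAi heads, against 64 and 1. The cause of these shifts was not tested.

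Leaving out 1 library at a time gave 30 to 57 members lower under RNAi in females and 82 to 84 in males. The sex difference of the RNAi effect was called higher for 2 to 7 (2 without female RNAi CT26, 7 without female RNAi CT62). Rhythmic members in female RNAi heads numbered 0 to 1 (1 without CT34). Day 2 counts ranged from 58 to 72 in female RNAi heads, 79 to 81 in female controls and 18 to 74 in male RNAi heads. The others did not move. Shares of all tested genes are not given here for these fits, so the ranges cannot be read as particular to the members.

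Single members changed sign as follows. For RNAi in females, centring gave RpL31 0.04, RpL38 0.06, RpS29 0.07 and RpL13A 0.09, day 1 gave RpL31 0.10, RpS29 0.03 and RpL13A 0.24, and libraries of at least 50000 TPM mt:lrRNA gave RpL38 0.03, RpS29 0.16 and RpL13A 0.05. For RNAi in males, centring gave RpL38 0.02 and RpS29 0.04. For the sex difference of the RNAi effect, day 1 gave RpS10b 0.08, RpLP0-like 0.08 and RpL21 0.04, and day 2 gave RpL22 0.01, RpL31 -0.03, RpL35A -0.15, RpL13 -0.20, RpL13A -0.11 and RpS14b -0.30. Females under 50000 TPM gave RpL22 0.10, RpS10b 0.12, RpLP0-like 0.03 and RpL21 0.01, and day 1 females above it RpLP0-like 0.06 and RpL21 0.02. For females against males in controls, RpS15Ab was -0.14 with nuclear rescaling, -0.05 with females of at least 50000 TPM, -0.01 with those on day 1 and -0.02 with the length trend removed, and RpL38 was -0.02 on day 2. None of these was called in the reported fit except RpL38 in the last and RpS29 in males.

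With CT as a replicate block, 49 members were lower under RNAi in females and 83 in males, against 59.3% and 55.9% of all tested genes. For the sex difference of the RNAi effect 4 were called higher, against 6.36%. In females against males 84 were higher in controls and 85 under RNAi, against 29.1% and 33.8%. The block changed none of these counts by over 1.5 times. The labels do not pair libraries of the same CT, and their deviations correlated over 0.1 in 18 of 24 pairs in females (median r 0.241) and in 11 of 24 in males (median r 0.0781), short of every pair. Unknown depth limits the precision of the lowest members.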
